A study of Mus musculus with 6 samples.

Results

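The collagen genes of mouse skin were described as 1 family, comprising every gene of the deposited table whose symbol has the form of a collagen chain (Col, a type number, a and a chain number). The table listed 21959 genes, 44 of which had such a symbol. Col17a1, a transmembrane collagen of the hemidesmosome, was left out, so the family held 43 genes. They were grouped by the kind of structure their protein builds, with 11 fibrillar chains, 8 chains of basement membranes, 9 fibril-associated collagens with interrupted triple helices (FACIT) and 15 other chains.

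RNA was sequenced from full-thickness dorsal skin of male wildtype C57BL/6 mice, 3 treated with vehicle and 3 treated with 3% rebamipide. All mice were 7 weeks old, had been shaved on the back while the hair follicles were in telogen, the resting phase, and received the treatment on the skin once a day for 7 days. The vehicle was dipropylene glycol in water, and rebamipide is a drug made for gastric ulcers that the study tested for hair regrowth. Each library came from 1 mouse, and poly-A RNA was sequenced, so the values describe all cells that the skin piece held. Whether the pieces held the same layers in the same proportions is not given in the sources used here.

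A collagen molecule is a triple helix of 3 chains, which may be the same or products of different genes. Fibroblasts of the dermis make most of the fibrillar chains, which are trimmed outside the cell, assembled into fibrils and cross-linked, and these fibrils give skin its tensile strength. Type IV chains instead form a mesh, the scaffold of the basement membranes that lie under the epidermis and around vessels, adipocytes and muscle fibres. FACIT collagens sit on the surface of fibrils, and type VII collagen anchors the epidermal basement membrane to the dermis.

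The deposited gene positions are of the genome build GRCm39. Col4a1 (ENSMUSG00000031502, chromosome 8, 11248423 to 11362826, minus strand) and Col4a2 (ENSMUSG00000031503, 11362805 to 11499287, plus strand) lie head to head, with starts 21 bases apart and 22 bases in common. Col4a3 and Col4a4 have starts 72 bases apart on chromosome 1, and Col4a5 and Col4a6 (ENSMUSG00000031273, X chromosome, 139948399 to 140257072, minus strand) have starts 1309 bases apart. Col27a1 (ENSMUSG00000045672) lies on chromosome 4 from 63132241 to 63253228 on the plus strand, and Col3a1 (ENSMUSG00000026043) on chromosome 1 from 45350698 to 45388866.

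RefSeq promoter sequences of the build GRCm38.p6 were at hand for 34 of the 43 genes. The 250 bases before the start are shown for Col27a1 and Col4a6, the genes with the largest rise and the fall described below, and for Col3a1, an abundant fibrillar chain, for comparison. Capitals mark a GGGCGG box (CCGCCC where it lies on the other strand) or a TATAAA box, searched on both strands.
Col27a1, chr4:63215162-63215411, plus strand: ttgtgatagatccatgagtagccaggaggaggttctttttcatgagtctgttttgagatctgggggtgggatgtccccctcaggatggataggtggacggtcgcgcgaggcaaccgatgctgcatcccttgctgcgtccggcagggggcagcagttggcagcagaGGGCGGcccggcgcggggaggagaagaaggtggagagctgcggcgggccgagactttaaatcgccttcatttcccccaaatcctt
Col4a6, chrX:141474077-141474326, minus strand: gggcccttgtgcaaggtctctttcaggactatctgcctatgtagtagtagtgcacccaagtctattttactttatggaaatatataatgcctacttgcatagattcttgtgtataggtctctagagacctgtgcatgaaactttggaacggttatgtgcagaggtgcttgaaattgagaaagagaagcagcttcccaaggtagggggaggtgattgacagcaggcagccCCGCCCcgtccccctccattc
Col3a1, chr1:45311288-45311537, plus strand: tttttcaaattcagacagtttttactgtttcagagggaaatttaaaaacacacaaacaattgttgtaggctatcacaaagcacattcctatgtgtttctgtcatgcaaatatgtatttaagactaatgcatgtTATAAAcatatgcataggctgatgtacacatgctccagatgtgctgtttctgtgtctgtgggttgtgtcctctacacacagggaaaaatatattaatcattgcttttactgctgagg
The GGGCGG box began 85 bases before the start in Col27a1 and 21 bases before it, on the other strand, in Col4a6, and the TATAAA box began 117 bases before the start in Col3a1. In the 250 bases before the start, GGGCGG was found in 21 of the 34 collagen genes and in 32.7% of 32851 promoters. TATAAA was found in 4 and in 12.4%, and CCAAT in 12 and in 33.8%. A collagen gene was counted if any of its promoters held the motif, while the percentages are of single promoters. The shares are therefore not counted alike. These are matches of letters and do not show binding. In the same build the starts of Col4a2 and Col4a1 lie at 11312805 and 11312826 of chromosome 8, so the window before each start falls inside the other gene, and it is not printed.

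The libraries held 38676018 to 39915276 counts with vehicle and 32709801 to 34706852 with rebamipide. Mitochondrially encoded genes made up 2.59 to 5.36% of a vehicle library and 13.3 to 22.0% of a rebamipide library. Levels are given as counts per 1000000 counts after TMM scaling of the library sizes (normalized CPM). On this scale the median log2 fold change of all 14875 genes tested was -0.17, against -0.78 with scaling by library totals alone. The fold changes below are therefore best read against that median.

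Beside the collagen genes, markers of other cells of the skin piece differed between the groups. Of 8 brown adipocyte markers, 7 were higher with rebamipide. The remaining 1 lay lower in every rebamipide library (log2 fold change -1.45) and was not called. The summed level of all 8 was 214 to 379 normalized CPM with vehicle and 5155 to 13161 with rebamipide. Ucp1, the uncoupling protein of brown fat, had 0 counts in every vehicle library and 81048, 220449 and 150572 in the rebamipide libraries. Endothelial markers were higher for 6 of 8 genes and white or general adipocyte markers for 4 of 8. Over all genes, 14.1% were called higher (adjusted p-value under 0.05, edgeR). None of 6 basal keratinocyte markers passed the test, while their sum was 2364 to 3717 in the vehicle libraries and 1098, 677 and 144 in rebamipide libraries 1, 2 and 3. In rebamipide library 3 the keratins of the basal epidermis, which define skin, were nearly absent, with 0 counts of Krt14, 0 of Krt15 and 4 of Krt5. The study describes the mice as in telogen. Markers of the growing hair follicle summed to 12951 and 5508 normalized CPM in vehicle libraries 1 and 2. Their sum was 138 in vehicle library 3 and 0.229 to 722 with rebamipide. In bulk tissue, fewer cells of a type and less RNA per cell cannot be told apart.

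The 3 rebamipide libraries also differed among themselves in their collagen genes. Of the 38 collagen genes that passed the filter on low counts, rebamipide library 1 lay inside the range of the vehicle libraries for 16, below it for 8 and above it for 14. Rebamipide library 2 lay below all vehicle libraries for 28 genes and rebamipide library 3 for 29, and each of these libraries lay above them for 6. Each library was left out in turn. Rebamipide library 1 was singled out by its collagen values, so leaving it out favours larger falls and more lower calls of the same genes, and values without it are descriptions and not separate evidence of a fall.

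**Figure D1:**
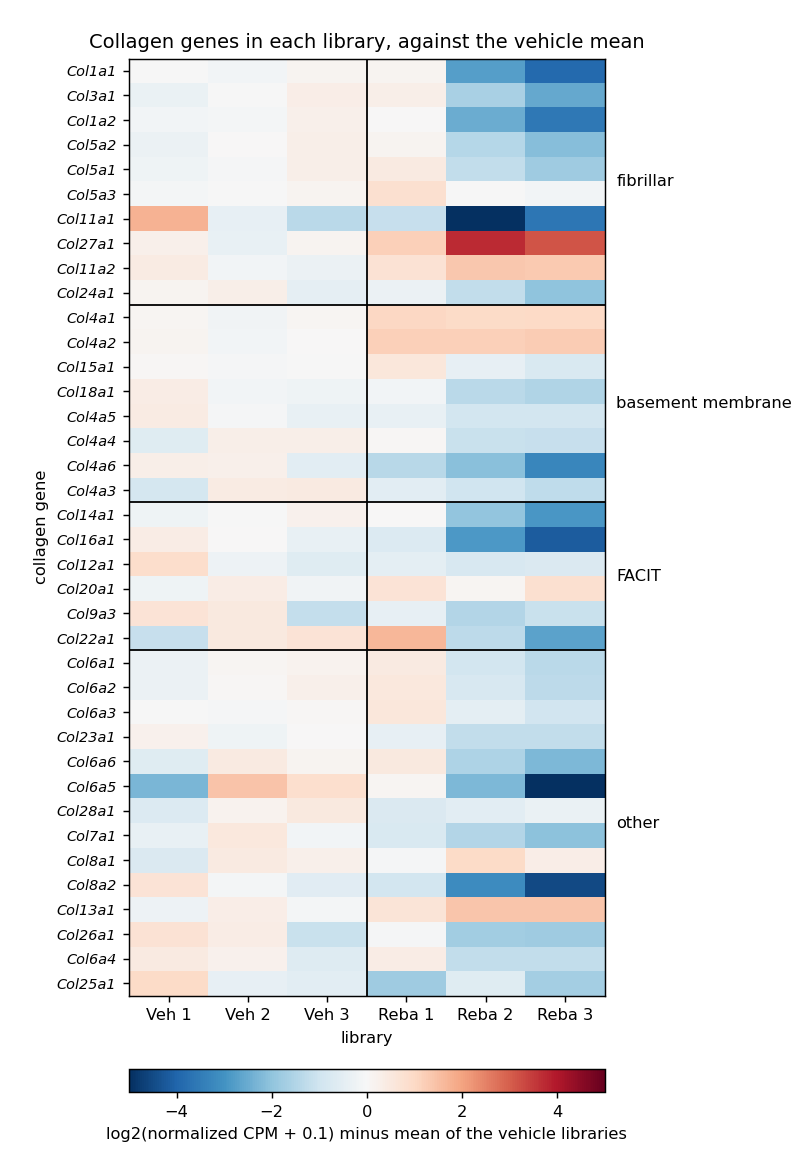
Level of each of the 38 collagen genes tested (rows) in each library (columns), as log2(normalized CPM + 0.1) minus the mean of the 3 vehicle libraries, with blue below and red above that mean. Rebamipide libraries 2 and 3 are blue for most genes, while Col4a1 and Col4a2 are red in all 3 rebamipide libraries and Col27a1 is darkest red in libraries 2 and 3.

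Across the family, 3 genes were higher with rebamipide (Col27a1, Col4a1 and Col4a2) and 1 was lower (Col4a6) at an adjusted p-value under 0.05 in edgeR's quasi-likelihood test. The other 34 genes tested did not pass it. Over all genes, 14.1% were higher and 6.51% were lower, 20.6% in all, shares that the collagen genes did not exceed. At an unadjusted p-value under 0.05 the test gave 5 higher and 4 lower, where 20.9% and 18.8% of all genes were. The study itself asked for a fold change of more than 1 on the log2 scale and a p-value below 0.05 with no adjustment, and by these thresholds 4 collagen genes were higher and 2 lower, where 14.3% and 14.5% of all genes were. DESeq2, with all libraries, called 5 higher, the same 3 with Col11a2 and Col13a1, and 5 lower, Col4a6 with Col7a1, Col8a2, Col11a1 and Col23a1, where it called 16.2% and 15.5% of all genes it gave an adjusted p-value.

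Most fitted values were negative. The log2 fold change was below 0 for 29 of the 38 genes, against 56.9% of all genes, and its median was -0.79, against -0.17 over all genes. The collagen median lay 0.61 below that of all genes, 0.55 below it with scaling by library totals alone and 0.39 below it with limma on log2(FPKM + 1). A change of scaling moves both medians nearly alike, so the closeness of 0.61 and 0.55 is no separate support. Without rebamipide library 1, 2 or 3 it lay 1.25, 0.41 or 0.40 below it. The groups did not overlap for 12 genes, of which 5 had every rebamipide library above and 7 every rebamipide library below. Over all genes these shares were 24.5% and 24.0%.

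**Figure D2:**
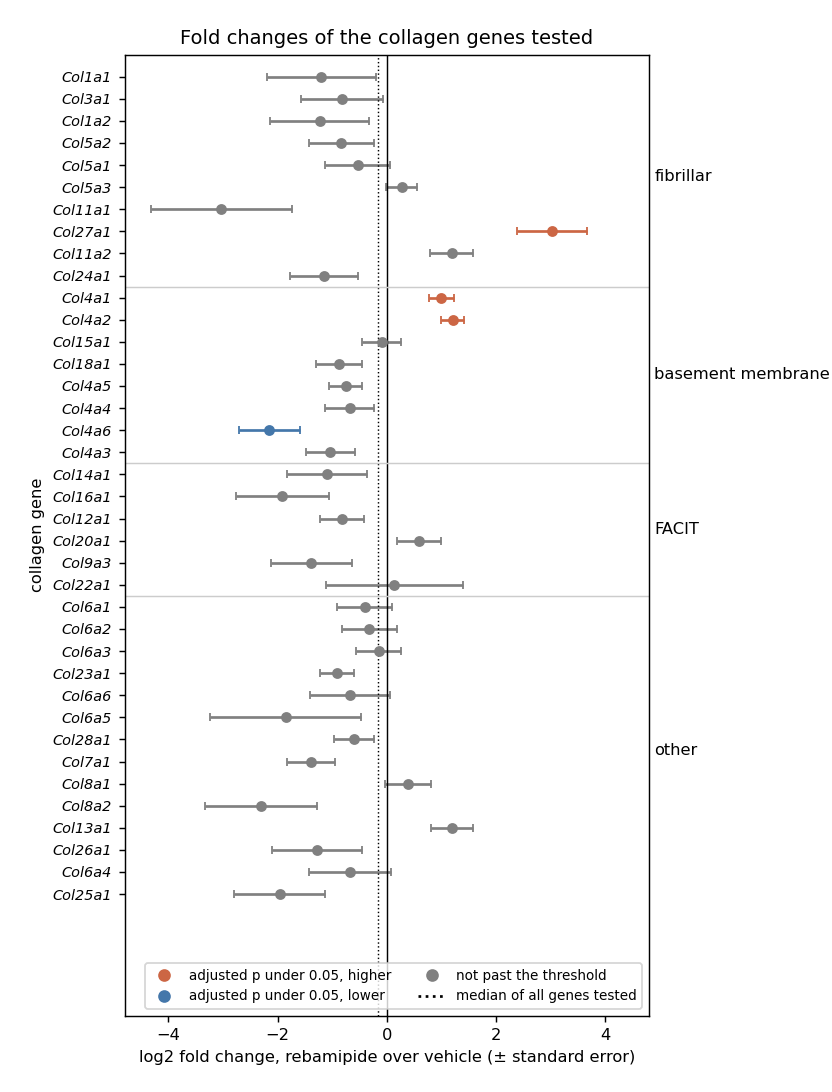
Log2 fold change of rebamipide over vehicle (x axis, bars are standard errors) for the 38 collagen genes tested, by class. Col27a1 at 3.02, Col4a2 at 1.21 and Col4a1 at 1.00 passed the test as higher and Col4a6 at -2.15 as lower, and the fibrillar chains Col1a1, Col1a2 and Col3a1 have wide bars that reach nearly to 0.

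The type I and type III chains dominated the vehicle skin. Col1a1, which with Col1a2 makes type I collagen, the main fibril of the dermis, was at 3467, 3218 and 3908 normalized CPM with vehicle and at 3849, 527 and 237 with rebamipide. Library 1 of the rebamipide group was within the vehicle range, and libraries 2 and 3 were 6.70-fold and 14.9-fold below the vehicle mean. The log2 fold change was -1.20 ± 1.00 (SE, adjusted p = 0.395, edgeR). Col1a2 followed the same order, with 3700, 3863 and 4891 normalized CPM against 4222, 742 and 347 (-1.23 ± 0.91, adjusted p = 0.342, edgeR). Col3a1, the chain of type III collagen of loose dermis and vessel walls, was at 3802, 4661 and 6042 with vehicle and at 5853, 1557 and 797 with rebamipide. Its log2 fold change was -0.82 ± 0.76 (adjusted p = 0.441, edgeR).

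Type V collagen starts type I fibrils and limits their width. Col5a1 was at 205, 227 and 292 normalized CPM with vehicle and 329, 102 and 69.0 with rebamipide. Col5a2 was at 265, 333 and 400 against 363, 123 and 74.5. For both chains rebamipide library 1 stood among or above the vehicle libraries and the other two below them, and neither passed the test (log2 fold change -0.54, adjusted p = 0.523, and -0.83, adjusted p = 0.325, edgeR). The third type V chain, Col5a3, was at 92.2, 96.9 and 108 against 169.8, 98.1 and 89.8, and its log2 fold change of 0.27 became -0.07 without rebamipide library 1 and -0.30 with scaling by library totals alone (adjusted p = 0.501 with all libraries, edgeR). On the length-corrected scale the ratio of Col5a3 to Col5a1 FPKM was 0.463 to 0.567 with vehicle and 0.650, 1.21 and 1.63 with rebamipide.

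The size of these differences depended on which rebamipide library was left out. The log2 fold change of Col1a1 was -3.20 without library 1, -0.78 without library 2 and -0.68 without library 3. For Col1a2 these values were -2.93, -0.85 and -0.73, and for Col3a1 -2.03, -0.53 and -0.38. For Col5a1 they were -1.49, -0.27 and -0.16, and for Col5a2 -1.75, -0.60 and -0.45. All 5 chains were called lower by edgeR without library 1, whose own values for them lay among or above the vehicle libraries, and none was called without library 2 or 3. In the whole family 15 genes were lower and 4 higher without library 1, where 12.8% and 18.3% of all 15345 genes tested were. Leaving out any other library left no collagen gene called lower in edgeR, in 2 of these fits with 0 and 1 genes called in the whole table, and 1 to 5 called lower in DESeq2. The 15 genes were 5 fibrillar chains, 2 of basement membranes (Col18a1 and Col4a6), 2 FACIT chains (Col14a1 and Col16a1) and 6 others (Col6a1, Col6a2, Col6a6, Col7a1, Col8a2 and Col23a1).

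Fibroblast markers had their lowest sums in the same libraries. Of 11 fibroblast genes 1, Fap, was called lower, 10 had a fitted value below 0 and the list median was -1.26. Their summed level was 1639 to 4453 normalized CPM with vehicle and 2249, 1088 and 751 in rebamipide libraries 1, 2 and 3, with none at 0 in any library. The summed level of Col1a1, Col1a2 and Col3a1 was 6.69, 3.78 and 3.33 times the fibroblast sum in the vehicle libraries and 6.19, 2.60 and 1.84 times in the rebamipide libraries. Tendon and fascia markers, none of 5 called, summed to 49.6 to 57.9 against 46.2, 13.5 and 6.26. The part of these cells in the fibrillar values was not tested.

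**Figure D3:**
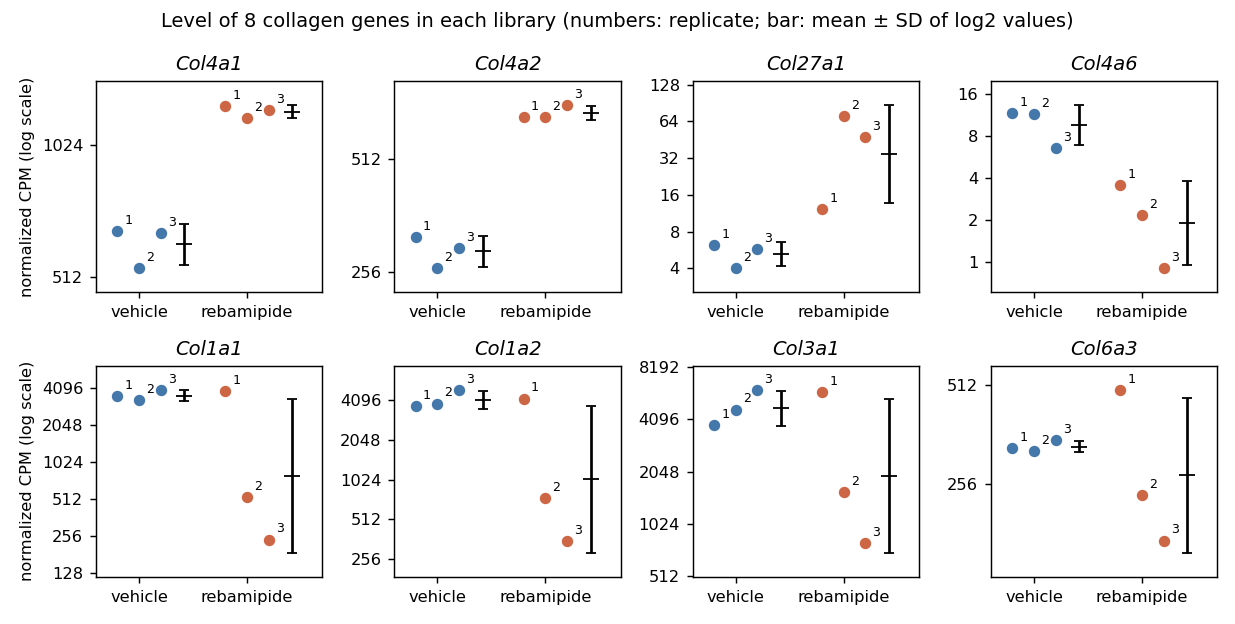
Normalized CPM (log scale) of 8 collagen genes in each library, with points numbered by replicate and bars giving mean ± SD of the log2 values. Col4a1 and Col4a2 sit in 2 tight groups, Col27a1 and Col4a6 do not overlap between groups, and Col1a1, Col1a2, Col3a1 and Col6a3 have rebamipide library 1 among or above the vehicle libraries.

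Col27a1 was the fibrillar chain that rose. It encodes type XXVII collagen, a fibrillar chain with a short triple helix best known from cartilage. Its counts were 311, 199 and 270 with vehicle and 372, 1822 and 1240 with rebamipide, or 6.23, 4.04 and 5.77 against 12.2, 71.0 and 47.3 normalized CPM. All rebamipide libraries were above all vehicle libraries, with library 1 nearest to them, 2.29-fold above the vehicle mean. The log2 fold change was 3.02 ± 0.65 (adjusted p = 0.0267, edgeR), and 3.47 (adjusted p = 0.00494) without rebamipide library 1. The edgeR call was lost when any other single library was left out (2.48 to 3.10, adjusted p = 0.0527 to 0.114). It was also lost with the replicate number as a block (2.75, adjusted p = 0.0875) or limma-voom (2.69, adjusted p = 0.0549). With those single libraries left out, DESeq2 kept the call (adjusted p = 0.000371 to 0.00607) and limma-voom did not (adjusted p = 0.0896 to 0.158).

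Cartilage genes were scarce in these libraries. Of 7 cartilage and bone markers 2 passed the filter, 0 were called, 5 were at 0 in some library, and their sum was 2.18 to 9.996 normalized CPM with vehicle and 0.954 to 7.51 with rebamipide. Among collagens of cartilage, Col2a1 had 20, 6 and 8 counts with vehicle and 4, 0 and 0 with rebamipide. Col11a1, a type XI chain, had 3938, 862 and 425 counts with vehicle and 318, 14 and 48 with rebamipide, so the vehicle libraries alone spanned 8.68-fold in normalized CPM. Its log2 fold change of -3.03 ± 1.29 did not pass the test (adjusted p = 0.135, edgeR), and it was called lower by DESeq2 (-3.05, adjusted p = 0.0225) and by edgeR with a replicate block (-3.33, adjusted p = 0.0483). Its partner Col11a2 had low counts of 45 to 80 with vehicle and 62 to 82 with rebamipide, with every rebamipide library higher in normalized CPM and a log2 fold change of 1.18 (adjusted p = 0.0796, edgeR, and 0.0236, DESeq2), or 0.54 with scaling by library totals alone (adjusted p = 0.267, edgeR). The low fibrillar chain Col24a1 had 41 to 76 counts with vehicle and 6 to 30 with rebamipide (-1.15, adjusted p = 0.21, edgeR).

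Among the vehicle libraries, the sum of the growing hair follicle markers was highest in library 1 and lowest in library 3. Of the 38 collagen genes tested, 12 had that order, Col11a1 and the called gene Col4a6 among them, 11 had the reverse order, among them Col1a2 and Col3a1, and 15 had another. None of the 7 markers was called, their median log2 fold change was -4.60, and 6 of them were at 0 in some library. The part of the follicle stage in these values was not tested.

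The main chains of basement membranes rose. Col4a1 was at 651, 538 and 646 normalized CPM with vehicle and 1255, 1177 and 1227 with rebamipide. Col4a2, its partner in the type IV network of nearly all basement membranes, was at 317, 263 and 296 against 658, 658 and 708. The groups were far apart and each was tight, and rebamipide library 1 was close to the other two. Col4a1 rose by 1.00 ± 0.23 (adjusted p = 0.0321, edgeR) and Col4a2 by 1.21 ± 0.21 (adjusted p = 0.0156, edgeR) on the log2 scale.

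These rises depended on the scaling between libraries. With library totals alone the log2 fold changes were 0.38 (adjusted p = 0.230, edgeR) for Col4a1 and 0.59 (adjusted p = 0.0716, edgeR) for Col4a2, and neither was called. Against the median of all genes they were 1.16 and 1.37, beside 1.17 and 1.38 under TMM. A change of scaling shifts all genes nearly alike. The closeness therefore follows from the subtraction and is no separate support for the rises. In the deposited FPKM, which are scaled by totals, Col4a1 was at 111, 89.0 and 105 with vehicle and 156, 118 and 124 with rebamipide, and Col4a2 at 61.2, 49.0 and 54.1 against 92.2, 74.2 and 80.7, with no overlap for either. When single libraries other than rebamipide library 1 were left out, the edgeR adjusted p was 0.0584 to 0.155 for Col4a1 and 0.0337 to 0.0979 for Col4a2. Over the whole table these fits called 1886, 0 and 2560 genes without vehicle library 1, 2 and 3, and 1 and 1394 without rebamipide library 2 and 3, against 3061 with all libraries. Where 0 passed, 4116 genes had an unadjusted p-value under 0.05.

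Endothelial markers rose beside them. All 8 endothelial genes had every rebamipide library above every vehicle library, 6 were called higher (Cdh5, Kdr, Emcn, Tie1, Egfl7 and Esam), and none was at 0. Over all genes, 24.5% had every rebamipide library above and 14.1% were called higher. Their sum was 249, 356 and 566 normalized CPM with vehicle and 1158, 1434 and 1704 with rebamipide, and the list median was 1.63 on the log2 scale. The sum of Col4a1 and Col4a2 was 3.89, 2.25 and 1.67 times the endothelial sum in the vehicle libraries and 1.65, 1.28 and 1.14 times in the rebamipide libraries, the first of which was just under the lowest vehicle value. White and general adipocyte markers summed to 1870 to 5128 with vehicle and 10304 to 20090 with rebamipide. Pericyte and smooth muscle markers, 1 of 7 called higher, summed to 567 to 1319 against 1147 to 1725. The part of these cells in the rise was not tested.

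The type IV chains of epithelia did not follow Col4a1 and Col4a2. Col4a6, which with Col4a5 forms the type IV network of the epidermal and smooth muscle basement membranes, had 579, 564 and 307 counts with vehicle and 108, 56 and 24 with rebamipide. In normalized CPM this was 11.6, 11.5 and 6.56 against 3.56, 2.18 and 0.916, and the groups did not overlap. It fell by 2.15 ± 0.56 on the log2 scale (adjusted p = 0.0426, edgeR). The call was kept without rebamipide library 1 (adjusted p = 0.0272, edgeR). In edgeR it was lost without any other single library (-1.77 to -2.35, adjusted p = 0.0595 to 0.152). With those libraries left out, DESeq2 kept the call (adjusted p = 0.00144 to 0.0207). In limma-voom it was kept only without vehicle library 3 (adjusted p = 0.0283).

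Col4a5 lay lower in every rebamipide library too, at 29.2, 21.2 and 17.2 normalized CPM against 17.2, 11.5 and 11.5, but it did not pass the test (log2 fold change -0.75, adjusted p = 0.118, edgeR). The ratio of Col4a5 to Col4a6 FPKM was 2.99, 2.19 and 3.11 with vehicle and 5.73, 6.23 and 14.8 with rebamipide. Col4a3 and Col4a4, chains of the kidney filter, were scarce. Col4a3 was at 3.67, 9.08 and 9.34 normalized CPM against 4.64, 3.35 and 2.79, and Col4a4 at 9.47, 17.6 and 17.6 against 14.9, 6.59 and 6.45. In both, rebamipide library 1 stood inside the vehicle range. They had log2 fold changes of -1.03 (adjusted p = 0.144) and -0.68 (adjusted p = 0.296, edgeR). Across the 6 type IV chains, then, 2 rose, 1 fell and 3 did not pass the test. The sum of the basal keratinocyte markers given above was lower in every rebamipide library as well, with a list median of -2.47, and their part in these values was not tested.

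Types XV and XVIII collagen carry sugar chains and lie in basement membrane zones, and a fragment of type XVIII collagen is endostatin. Col15a1 was at 177, 163 and 164 normalized CPM with vehicle and 246, 125 and 100 with rebamipide. Rebamipide library 1 was above and libraries 2 and 3 below all vehicle libraries, and the fitted value was -0.09 ± 0.36 (adjusted p = 0.860, edgeR). Its sign turned to above 0 without rebamipide library 2 or 3. Col18a1 was at 144, 101 and 94.98 against 101, 44.2 and 39.3, with a log2 fold change of -0.88 (adjusted p = 0.166, edgeR). It overlaps the gene Slc19a1 on the opposite strand by 8825 bases, and whether reads were counted by strand is not given in the sources used here.

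None of the FACIT chains passed the test. Col14a1, which sits on dermal fibrils and influences their spacing, was at 126, 145 and 169 normalized CPM with vehicle and 149, 37.3 and 19.3 with rebamipide. Col16a1, found near the dermal-epidermal junction and with fibrillin fibrils, was at 111, 86.2 and 66.6 against 53.7, 11.7 and 4.73. All rebamipide libraries were below the vehicle libraries for Col16a1, and rebamipide library 1 was inside the vehicle range for Col14a1. The log2 fold changes were -1.10 ± 0.73 (adjusted p = 0.296) for Col14a1 and -1.91 ± 0.86 (adjusted p = 0.150, edgeR) for Col16a1.

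Col12a1, a FACIT of dense connective tissue under tension, was at 151, 69.0 and 54.0 normalized CPM with vehicle and 59.1, 46.8 and 49.6 with rebamipide. Here the vehicle libraries spread 2.79-fold and the rebamipide libraries 1.26-fold, with a log2 fold change of -0.82 ± 0.40 (adjusted p = 0.181, edgeR), and of -0.26 without vehicle library 1. Of the remaining FACIT chains, Col20a1, Col9a3 and Col22a1 had 2 to 105 counts and did not pass the test. Col22a1, known from muscle-tendon junctions, was at 3.46 normalized CPM in rebamipide library 1 and 0.0763 in library 3, and the skeletal muscle markers, none of 7 called, summed to 32336 and 269 in those libraries. Of 5 slow skeletal muscle markers 3 were called higher, against 14.1% of all genes. Their sum was 1.90 to 13.0 with vehicle and 224, 101 and 5.88 in rebamipide libraries 1, 2 and 3.

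Type VI collagen forms beaded microfibrils between cells and fibrils. Col6a1 was at 343, 447 and 473 normalized CPM with vehicle and 570, 218 and 163 with rebamipide. Col6a2 was at 290, 370 and 427 against 522, 204 and 145, and Col6a3 at 329, 323 and 348 against 496, 236 and 172. For each, rebamipide library 1 was above and libraries 2 and 3 below every vehicle library. The log2 fold changes were -0.41 ± 0.50, -0.32 ± 0.50 and -0.15 ± 0.41 (adjusted p = 0.560, 0.657 and 0.811, edgeR). The last turned to 0.01 without rebamipide library 2 and to 0.14 without library 3.

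Type VII collagen, made by keratinocytes and fibroblasts, builds the anchoring fibrils under the epidermis. Col7a1 was at 12.4, 23.3 and 14.6 normalized CPM with vehicle and 9.61, 5.85 and 3.78 with rebamipide, with no overlap, and missed the threshold (log2 fold change -1.39 ± 0.44, adjusted p = 0.0698, edgeR). The transmembrane chain Col23a1 did not overlap either, at 24.0, 17.8 and 21.4 against 15.8, 8.92 and 8.89 (-0.91 ± 0.31, adjusted p = 0.0832, edgeR). Col13a1, another transmembrane chain, lay higher, with 76, 116 and 81 counts against 88, 128 and 131 and a log2 fold change of 1.20 ± 0.38 (adjusted p = 0.0712, edgeR). With all libraries DESeq2 called Col7a1 and Col23a1 lower (adjusted p = 0.0166 and 0.0437) and Col13a1 higher (adjusted p = 0.0181). With scaling by library totals alone edgeR called Col7a1 and Col23a1 lower as well (adjusted p = 0.0346 and 0.0348), and Col13a1 had a log2 fold change of 0.55 (adjusted p = 0.217). Without rebamipide library 1 edgeR called all 3.

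Neither of the type VIII chains, known from vessel walls, passed edgeR's test. Col8a2 had 457, 262 and 176 counts with vehicle and 90, 14 and 4 with rebamipide, and all rebamipide libraries were below all vehicle libraries. Its log2 fold change was -2.30 ± 1.02 (adjusted p = 0.147, edgeR), and DESeq2 called it lower (-2.33, adjusted p = 0.0466). Col8a1 had 213, 479 and 398 counts with vehicle and 207, 351 and 235 with rebamipide, with a log2 fold change of 0.39 (adjusted p = 0.521, edgeR). Col6a5 had the widest spread, 13.4-fold among the vehicle and 47.5-fold among the rebamipide libraries, and did not pass the test (adjusted p = 0.346, edgeR). The other chains tested in this class, Col6a4, Col6a6, Col25a1, Col26a1 and Col28a1, had 2 to 1793 counts and none passed.

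Of the 43 genes, 5 did not pass the filter on low counts of the edgeR fit. They were Col2a1, Col9a1, Col9a2, Col10a1 and Col19a1, with 0 to 20 counts per library. A count of 0 allows up to 3 counts, or 0.0601 to 0.117 normalized CPM, and this limit covers counting error only. DESeq2, run with no such filter, called none of the 5 with all libraries. Without rebamipide library 1 it called Col2a1, the chain of cartilage fibrils, lower, and as both remaining rebamipide libraries were at 0 counts no fold is given. Col10a1 also shares 7105 bases with Nt5dc1 on the other strand.

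The make-up of the collagen reads differed between the libraries. Collagen genes took 1.84, 1.87 and 2.25% of all counts with vehicle and 1.77, 0.452 and 0.329% with rebamipide. Fibrillar chains were 80.7, 82.1 and 84.3% of collagen counts with vehicle and 77.7, 53.2 and 38.2% with rebamipide, while basement membrane chains were 9.33, 7.43 and 6.74% against 12.1, 33.5 and 48.1%. Rebamipide library 1 was next to the vehicle libraries in each of these shares, and library 3 was farthest from them.

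The group means of the fibrillar share were 82.4 ± 1.83% and 56.4 ± 19.9%, and those of the basement membrane share 7.83 ± 1.34% and 31.2 ± 18.1% (SD, n = 3). The log2 ratio of Col4a1 plus Col4a2 counts to Col1a1 plus Col1a2 counts, which no scaling between libraries affects, was -2.89, -3.14 and -3.22 with vehicle and -2.08, 0.53 and 1.73 with rebamipide. For the 3 shares and this ratio the groups did not overlap, and a two-sided exact permutation test gave p = 0.1 for each, also after adjustment over the 4 tests. This is the smallest p-value 3 against 3 libraries allow, so the design cannot reach 0.05. Of all counts other than those of mitochondrially encoded genes, the collagen share was 1.89, 1.95 and 2.37% with vehicle and 2.04, 0.561 and 0.422% with rebamipide, so these groups overlapped (p = 0.3, exact permutation test).

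**Figure D4:**
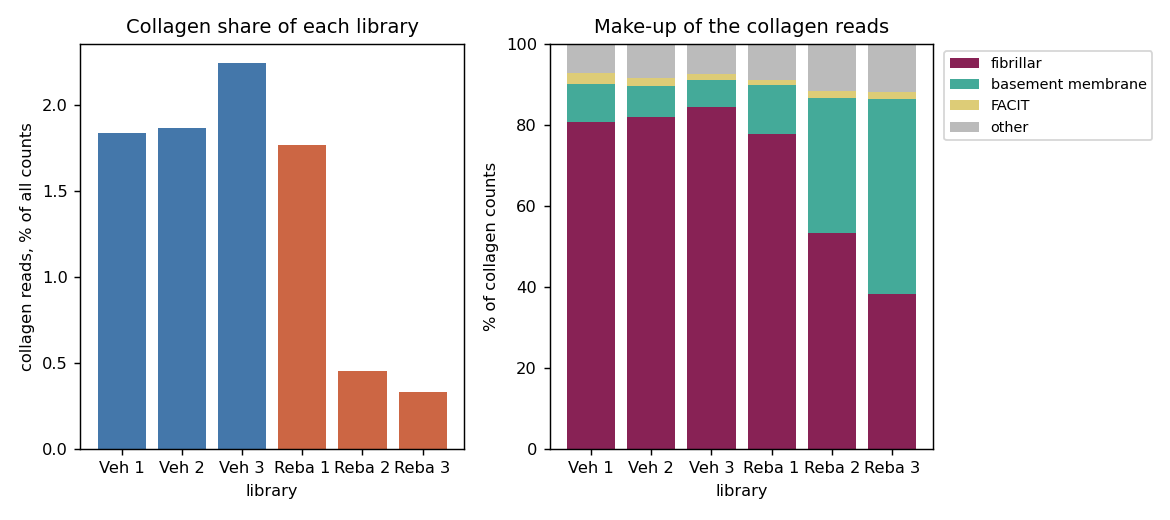
Left, collagen counts as a percentage of all counts in each library, and right, the percentage of collagen counts from fibrillar, basement membrane, FACIT and other chains. The collagen share is between 1.77 and 2.25% in the vehicle libraries and rebamipide library 1 and under 0.46% in rebamipide libraries 2 and 3, where the basement membrane part is 33.5 and 48.1%.

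Levels of different genes can be compared per length, in the deposited FPKM. By this measure Col1a1, Col3a1 and Col1a2 were the 3 highest collagen genes in each vehicle library and in rebamipide library 1. In rebamipide library 2 the order was Col3a1 (118 FPKM), Col4a1 (118) and Col4a2 (74.2), and in rebamipide library 3 it was Col4a1 (124), Col4a2 (80.7) and Col3a1 (61.3), with Col1a1 in place 5 at 27.3. The ratio of Col4a1 to Col1a1 FPKM was 0.145 to 0.165 with vehicle and 0.287, 1.97 and 4.55 with rebamipide. For Col3a1 to Col1a1, chains of different fibrillar molecules, it was 0.733 to 1.03 against 1.02, 1.98 and 2.25.

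Ratios between chains of 1 molecule differed from pair to pair. The ratio of Col1a1 to Col1a2 FPKM was 1.51 to 1.77 with vehicle and 1.29 to 1.73 with rebamipide, and that of Col6a1 to Col6a2 was 2.105 to 2.30 against 2.04 to 2.14. The ratio of Col4a1 to Col4a2 was 1.81 to 1.93 with vehicle and lower, 1.54 to 1.69, in every rebamipide library, and that of Col5a1 to Col5a2 was 0.764 to 0.865 and higher, 0.927 to 1.04. These ratios were not tested.

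Genes that make, process, bind or regulate collagen were followed in 6 lists with 84 genes, of which 79 were tested. With rebamipide 4 were higher and 6 lower, against 14.1% and 6.51% of all genes, and the median log2 fold change was -0.28, against -0.17 over all genes. Fitted values were below 0 for 55 of the 79, against 56.9% of all genes. The 10 called genes kept their direction in each of 16 alternative analyses, and each lost its call in some of them, as given beside its list.

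Of 15 genes that hydroxylate or glycosylate the new chains, 1 was higher, Plod1, a lysyl hydroxylase, at 29.2, 51.3 and 60.8 normalized CPM against 105, 104 and 111 (log2 fold change 1.18 ± 0.29, adjusted p = 0.0376, edgeR). Its call was lost in 8 of 16 alternatives, and with scaling by library totals alone its value was 0.57 (adjusted p = 0.143). The median of this list was -0.17. In FPKM its highest genes were P4hb, a subunit of prolyl 4-hydroxylase, at 203 to 218 with vehicle and 47.2 to 128 with rebamipide, and Crtap, of the prolyl 3-hydroxylation complex, at 26.2 to 38.4 against 21.2 to 28.02. Of 11 chaperone and secretion genes, 1 was lower, Mia3 (TANGO1), which helps load procollagen into transport carriers, at 62.5, 69.1 and 71.7 normalized CPM against 39.0, 46.2 and 40.1 (log2 fold change -0.70 ± 0.16, adjusted p = 0.0336, edgeR), a call lost in 5 of 16 alternatives. The list median was -0.12. Serpinh1, the collagen chaperone HSP47, was at 203 to 270 FPKM against 126 to 259, and the foldase Fkbp7 at 11.1 to 22.3 against 15.4 to 21.6.

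Genes that trim and cross-link collagen outside the cell had the lowest median of the 6 lists, -1.04. All 12 that were tested had fitted values below 0, under TMM scaling, and none passed the test. Of these, Pcolce, which speeds the removal of the carboxyl propeptide, was at 27.4 to 48.4 FPKM against 8.10 to 35.9, and Loxl2, a lysyl oxidase, at 22.6 to 26.7 against 3.06 to 22.9.

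Of 11 collagen receptors tested, 8 were not called, 1 was higher and 2 were lower, against 14.1% higher and 6.51% lower over all genes. The higher gene was Itga1, a collagen-binding integrin chain of vessels and stromal cells. It was at 22.6, 21.9 and 29.2 normalized CPM against 38.5, 71.1 and 91.6 (log2 fold change 1.45 ± 0.35, adjusted p = 0.0350, edgeR). The discoidin receptors Ddr2 and Ddr1, tyrosine kinases that bind fibrillar collagen, were lower. Ddr2, found in stromal cells, was at 55.5, 83.2 and 102 against 31.1, 22.6 and 15.8 (-1.79 ± 0.35, adjusted p = 0.0204, edgeR). Ddr1, found in epithelia, was at 103, 87.7 and 67.3 against 40.2, 17.2 and 10.95 (-1.92 ± 0.50, adjusted p = 0.0444, edgeR). Of 16 alternatives, the call was lost in 8 for Itga1, 3 for Ddr2 and 6 for Ddr1. The list median was -0.59, and Itgb1, the shared beta chain of these integrins and the list's highest gene, was at 78.9 to 101 FPKM against 53.4 to 62.7.

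In the TGF-beta list, a pathway that drives collagen synthesis in fibroblasts, 1 of 14 genes was higher and 1 lower, with a median of -0.08. Ltbp2, a microfibril-associated protein of the latent TGF-beta binding protein family, was at 6.03, 8.14 and 8.42 normalized CPM against 54.2, 91.5 and 123 (log2 fold change 3.57 ± 0.36, adjusted p = 0.00939, edgeR). The receptor Tgfbr1 was at 43.1, 40.4 and 38.7 against 13.3, 23.3 and 21.3 (-1.08 ± 0.26, adjusted p = 0.0352, edgeR). The call of Ltbp2 was lost in 2 of 16 alternatives and that of Tgfbr1 in 6. The ligand Tgfb1 was at 27.5 to 34.4 against 24.7 to 37.5 normalized CPM. By FPKM the highest genes of this list were Tgfbr2, at 23.5 to 58.0 against 19.6 to 41.3, and Tgfbr3, at 13.2 to 33.3 against 22.2 to 24.5.

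Most laminins and other basement membrane proteins did not pass the test. Of 16 tested, 13 were not called and 1 was higher, Hspg2, which encodes perlecan, a proteoglycan of nearly all basement membranes, at 165, 212 and 239 normalized CPM against 372, 363 and 425 (log2 fold change 0.91 ± 0.23, adjusted p = 0.0385, edgeR). Lama3 and Lamb3, laminin chains of the epidermal basement membrane, were lower. Lama3 was at 34.8, 33.6 and 19.3 against 8.66, 5.38 and 1.60 (-2.48 ± 0.63, adjusted p = 0.0406, edgeR), and Lamb3 at 18.1, 34.7 and 28.4 against 14.3, 9.67 and 9.12 (-1.29 ± 0.33, adjusted p = 0.0417, edgeR). The call was lost in 9 of 16 alternatives for Hspg2, 4 for Lama3 and 7 for Lamb3, and with scaling by library totals alone Hspg2 was at 0.30 (adjusted p = 0.283). The list median was -0.23, and its highest genes were Sparc, at 752 to 1086 FPKM against 316 to 846, and Nid1, at 49.0 to 80.8 against 27.4 to 55.3. Endothelial markers rose and the keratinocyte sum lay lower in the same libraries, as given above, and their part was not tested.

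**Figure D5:**
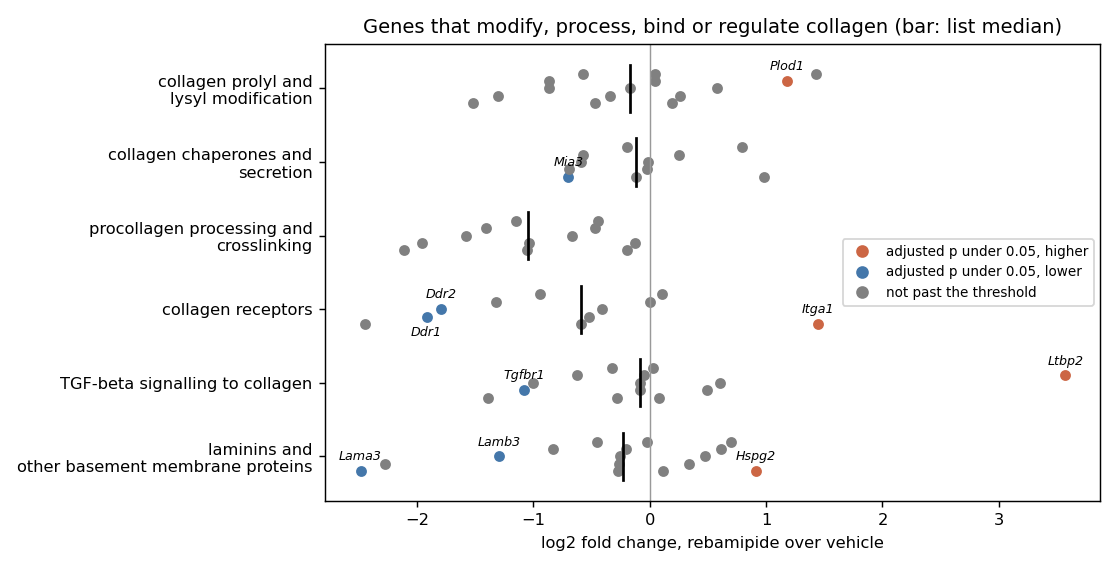
Log2 fold change of rebamipide over vehicle (x axis) for the 79 tested genes of 6 lists around collagen, 1 point per gene, with black bars at list medians. Named points passed the test, 4 above 0 and 6 below 0, and all 12 genes of procollagen processing and crosslinking lie below 0.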

How the data were processed

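The authors deposited 1 table with raw counts per gene and FPKM values for 6 libraries. The FPKM equal the counts scaled by gene length and library total. Per the submitters' processing notes, reads were handled with fastp 0.22.0, HISAT2 2.1.0, HTSeq 0.9.1 and the build GRCm39. Groups were taken from the sample labels, and p-values measure the spread between 3 mice per group.

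The groups' counts were tested with edgeR 4.0.16 under R 4.3.3 (TMM, filterByExpr, quasi-likelihood test, Benjamini-Hochberg adjustment over 14875 genes, 3 libraries against 3, no covariate), after a check on simulated data. Shares of counts were compared with a two-sided exact permutation test. FPKM served for levels between genes and, with limma 3.58.1 on log2(FPKM + 1), as an alternative. Other alternatives were DESeq2 1.42.0, limma-voom, other scalings and filters, a replicate block and leaving out each library. DESeq2 and limma-voom with libraries left out were added after the data were seen.

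The collagen genes and the lists were chosen with earlier results of these data known. Values per library are given for genes that passed the test, for the 3 genes of each class with the highest FPKM and for the main partner chains of types I, IV, V and VI. For other collagen genes and for the lists, those shown in full were chosen after their values were seen, except list genes that passed the test and the 2 of each list with the highest FPKM. Replicates differed by more than sampling noise (83.1 to 742.3 times, by chi-square over its degrees of freedom).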

Additional observations from a re-analysis of the deposited data

How the results depend on the processing

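Against the 3 collagen genes called higher and 1 called lower, and the 4 and 6 genes of the lists around collagen, scaling by library totals alone gave 1 and 6, and 1 and 18. That scaling called 1258 higher and 3752 lower of all 14875 genes, against 2093 and 968 with TMM. DESeq2 gave 5 and 5 collagen genes and 13 lower list genes, and limma on log2(FPKM + 1) gave 1 and 7, and 1 and 22. Over the whole table DESeq2 called 2661 higher and 2552 lower of 16433 genes, and limma on log2(FPKM + 1) 1344 and 4248 of 17835. At least 10 counts in every library gave 2 lower collagen genes and 10 lower list genes, upper quartile scaling gave 2 higher list genes, and the thresholds of the study gave 2 lower collagen genes and 13 lower list genes. Over the whole table these gave 1512 lower of 12659 genes, 1965 higher of 14875 and 2161 lower of 14875. With each library left out in turn, edgeR gave 0 to 4 higher and 0 to 15 lower collagen genes and 0 to 4 and 0 to 24 list genes, DESeq2 3 to 5, 1 to 26, 3 to 10 and 6 to 31 (12 and 13 lower list genes without vehicle replicate 2 and 1), and limma-voom 0 to 4, 0 to 14, 1 to 7 and 0 to 18. The most lower genes came without rebamipide library 1 with each tool. Over the whole table edgeR called 1971, DESeq2 4251 and limma-voom 1371 genes lower without that library. Without vehicle library 2 or rebamipide library 2, edgeR called 0 and 1 genes of the whole table (4116 and 4062 at an unadjusted p-value under 0.05).

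The sample labels give replicate numbers and no pairing of the libraries. Deviations of same-numbered libraries had correlations of -0.093, -0.024 and -0.055, and those of other pairs -0.34 to 0.344. With 3 libraries per group these correlations cannot show whether libraries were paired. With a replicate block 2 collagen genes were higher and 2 lower, and 1 list gene was higher and 3 lower. Of all 14875 genes, 1432 were higher and 855 lower in that fit. Of the 38 collagen genes tested, 7 changed sign in at least 1 of 16 alternatives. These were Col15a1 without rebamipide replicate 2 (0.052) or 3 (0.154), Col6a2 without rebamipide replicate 3 (0.01), Col6a3 without replicate 2 (0.009) or 3 (0.143), Col22a1 in 6 alternatives (0.14 to -2.45 without rebamipide replicate 1), Col5a3 in 3 (0.27 to -0.07 without that library), and Col8a1 (0.39 to -0.25) and Col20a1 (0.58 to -0.02) with library totals alone, both also below 0 with limma on log2(FPKM + 1). Without rebamipide replicate 1 Col15a1, Col6a2 and Col6a3 were at -0.57, -1.05 and -0.70. The causes were not tested. Col27a1, Col4a1, Col4a2 and Col4a6 kept their direction in 16 of 16 alternatives each and lost their call in 8, 7, 4 and 5 of them. Depth was 32709801 to 39915276 counts per library, and 5 collagen genes with 0 to 20 counts did not pass edgeR's filter on low counts.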
